A study of Mus musculus with 6 samples.

Results

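This account follows 6 microRNA (miRNA) reporters linked to the growth of vascular smooth muscle, namely mmu-miR-21, mmu-miR-21*, mmu-miR-221, mmu-miR-222, mmu-miR-31 and mmu-miR-31*, written without the mouse prefix mmu from here on. They were picked by reporter name, for known roles in smooth muscle growth and neointima formation, and are 6 of the 1078 mouse miRNA reporters on each array. The samples were cultured vascular smooth muscle cells of C57BL/6 mice, taken from the abdominal aorta at 8 weeks of age and collected some passages later. One group received TNF-α, an inflammatory cytokine (n = 3), and the other was left untreated as the control (n = 3). Neither the dose nor the duration of the treatment is known here. Each culture was read on 1 array with a single dye, Cy5, and each reporter has a median density, which is its spot brightness on a linear scale.

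miRNAs are short RNAs cut from hairpin transcripts, and they lower the output of mRNAs that pair with their seed, bases 2 to 8. Either arm of a hairpin can give a mature miRNA, and in the older names used on these arrays an asterisk marks the less abundant arm. In rat arteries miR-21, miR-221, miR-222 and miR-31 are known to accumulate after balloon injury and to favour smooth muscle proliferation. miR-21 represses Pdcd4, an inhibitor of translation initiation, and miR-221 and miR-222 repress the cell cycle inhibitors Cdkn1b and Cdkn1c. miR-31 represses Lats2, a kinase of the Hippo pathway, in rat smooth muscle, and is induced by TNF in human endothelial cells.

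The mature sequences, from RefSeq on mouse build GRCm38.p6, are shown to separate the seeds. All 6 names were matched to RefSeq by arm. The seed is in capitals.
miR-21: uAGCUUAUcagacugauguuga
miR-21*: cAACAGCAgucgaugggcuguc
miR-221: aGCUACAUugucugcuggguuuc
miR-222: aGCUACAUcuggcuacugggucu
miR-31: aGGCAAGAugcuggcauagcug
miR-31*: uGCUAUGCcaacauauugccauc
miR-1928: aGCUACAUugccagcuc

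miR-221 and miR-222 have the same seed, GCUACAU, which pairs with the site AUGUAGC in a target. They are identical over their first 8 bases and at 11 of 23 positions when laid side by side without gaps, so the reporters differ mainly in their 3′ part. miR-1928, another reporter on the arrays, has this seed too and is identical to miR-221 over its first 10 bases. These 3 were the only ones of 1738 mature RefSeq miRNAs with that seed. The seeds of miR-21, miR-21*, miR-31 and miR-31* differ from it and from each other, so the 6 reporters have 5 seeds.

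The hairpins of miR-21 and miR-31 are shown because both of their arms were read. The arms are in capitals, miR-21 and miR-31 first and the asterisked arm second.
Mir21a: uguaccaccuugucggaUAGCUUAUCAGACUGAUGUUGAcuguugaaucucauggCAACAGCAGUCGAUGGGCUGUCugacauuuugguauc
Mir31: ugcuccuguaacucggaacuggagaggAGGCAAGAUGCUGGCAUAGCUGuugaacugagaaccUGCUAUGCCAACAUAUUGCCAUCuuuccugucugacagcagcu

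The Mir21a hairpin lies at chr11:86584067-86584158 on the minus strand, within the annotated span of the protein-coding gene Vmp1. The Mir31 hairpin lies at chr4:88910557-88910662 on the minus strand, within the span of the long noncoding RNA Gm49890. Mature miR-221 and miR-222 lie at chrX:19146307-19146329 and chrX:19146901-19146923, both on the minus strand, with 504 bases between their hairpins. They are known to come from 1 primary transcript.

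The background differed between the groups of arrays. The background peak, which is the commonest density on an array, was 80.9 to 89.6 on the TNF-α arrays and 66.3 to 75.6 on the control arrays. A reporter is called clear of background here when it exceeded this peak plus 3 SD of the values below it on at least 3 arrays, as 293 of the 1078 did. Of the 6 reporters 5 were clear of background, each above the limit on all 6 arrays, and miR-21* exceeded the limit on no array. Control replicate 3 was the dimmest control array at 86.3% of the reporters clear of background, and TNF-α replicate 3 was the dimmest TNF-α array at 74.4%. The smooth muscle miRNAs miR-143 and miR-145 were clear of background on all arrays. Of their asterisked arms, miR-143* exceeded the limit on no array and miR-145* on 1 control array only. The 6 epithelial markers and 5 of 6 blood cell markers, miR-223 among them, exceeded the limit on none. Of 6 striated muscle markers 4 exceeded the limit on no array, miR-133a among them, and miR-133b did on 2 control arrays only. miR-206 exceeded it on all 6 and passed as lower with TNF-α (-0.49, adjusted p = 0.00339 in limma). miR-133a (-0.04) and miR-133b (-0.06) were tested too and did not pass. Of 4 liver and gut markers 3 passed as lower, where 9.81% of all 642 tested reporters did. None of these 3 exceeded the limit on a TNF-α array. In controls miR-194 exceeded it on 3 arrays, miR-215 on 2 and miR-122 on none. The marker that did not pass, miR-192 (-0.26, adjusted p = 0.0599 in limma), exceeded it on 3 control arrays and 1 TNF-α array. Of 3 neuron markers miR-128 exceeded it on all 6 arrays and 2 on none, and neither of the 2 tested passed. The endothelial marker miR-126-3p exceeded it on all 6 and miR-126-5p on none, with miR-126-3p at 134 ± 15.2 with TNF-α and 137 ± 19.3 in controls (SD, n = 3 each). The part of other cell types in the results was not tested. In such cultures fewer cells of a type and less RNA per cell cannot be told apart. Levels of different reporters are not compared, since each probe has its own brightness.

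None of the 6 reporters passed the test for a change with TNF-α in the fit over all reporters. Densities were corrected for background, taken to log2 with an offset of 50 and quantile normalized, a step after which reporters of equal rank have equal values on all arrays. The groups were compared with limma, with Benjamini-Hochberg adjustment over the 642 reporters tested. Of these 22.7% passed an adjusted p of 0.05 (12.9% higher and 9.81% lower with TNF-α). On the TNF-α arrays 667 to 777 reporters reached the density needed for the test, and on the control arrays 443 to 476. With a TNF-α array left out 500 reporters were tested, against 614 to 626 with a control array left out. The tested set therefore leans to reporters that entered through the TNF-α arrays. All 6 reporters were tested, and 0 passed; 0 of the 6 had an unadjusted p under 0.05. Their changes, TNF-α minus control on the log2 scale, ran from -0.18 for miR-21 to 0.06 for miR-31. The 95% intervals of the 6 reached from a fold of 0.764 at the lowest to 1.19 at the highest. Under the other scalings 0 of the tested members passed as well, where the share of all tested reporters that passed was 31.8% without normalization, 29.0% with scaling to the median, 24.9% with cyclic loess and 42.1% in the authors' processed table. When only the 293 reporters clear of background were tested, 37.5% of them passed, and 0 of the 5 members among them. The plot of change against level sets the 6 reporters among all those tested.

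**Figure D1:**
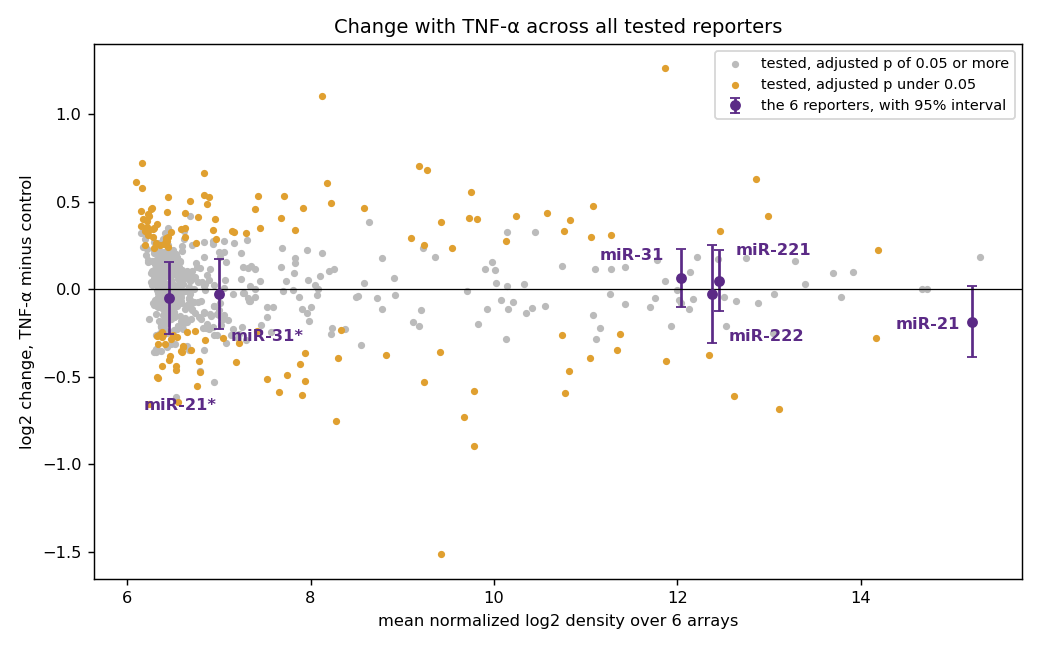
Change with TNF-α (log2, TNF-α minus control) against the mean normalized log2 density over 6 arrays for the 642 tested reporters. Each dot is 1 reporter, and bars on the 6 growth-linked reporters are 95% intervals, all of which include 0.

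miR-21 was bright on every array, and its groups overlapped. Its density was 37961, 40623 and 36443 on TNF-α arrays 1 to 3, against 37154, 38414 and 33613 on control arrays 1 to 3. The lowest value was that of control replicate 3, the dimmest control array. The mean was 38342 ± 2116 with TNF-α and 36394 ± 2489 in controls (SD, n = 3 each), a difference in mean log2 density of 0.08 (exact permutation test, two-sided, p = 0.5), and 0.02 without control replicate 3. With 3 arrays against 3 such a test cannot give a p under 0.1. The SD deposited for this spot on each array was at most 2.15% of its density. With 1 array per culture, the spread between cultures and that between arrays cannot be told apart.

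On the quantile scale miR-21 could take only a few values, because it was always 1 of the top 2 reporters. It ranked second on all 3 TNF-α arrays and on control replicate 1, and first on control replicates 2 and 3. miR-5126 or miR-125b-5p held the next rank. The other reporter of the top 2 was miR-709, at 49160, 53568 and 44238 on the TNF-α arrays and 42503, 34213 and 28279 on the control arrays. After normalization miR-21 was therefore 15.12 on each TNF-α array and on control replicate 1, and 15.39 on the other control arrays. The resulting change of -0.18 ± 0.09 (SE, adjusted p = 0.171 in limma) is a mean of such rank steps of 0.28, and its 95% interval was -0.39 to 0.02. With miR-709 left out of the table miR-21 ranked first on every array, and its change was 0 by construction.

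The direction for miR-21 depended on the scaling. Without normalization it was 0.08, median scaling gave 0.02 and the processed table gave 0.12, whereas cyclic loess gave -0.10. Limma passed none of these. Without control replicate 1, the control array on which miR-21 ranked second, it passed as lower with TNF-α (-0.29, adjusted p = 0.0333 in limma), where 4.95% of the 626 reporters tested passed as lower. Every TNF-α array then held rank 2 and both control arrays rank 1, and the deposited densities of the same arrays differed the other way, by 0.09. In the authors' processed table its intensities were 37877, 39649 and 39056 with TNF-α and 37085, 36992 and 33544 in controls. There the TNF-α values lay above all control values, as did those of 19.6% of the 285 reporters tested in that table.

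**Figure D2:**
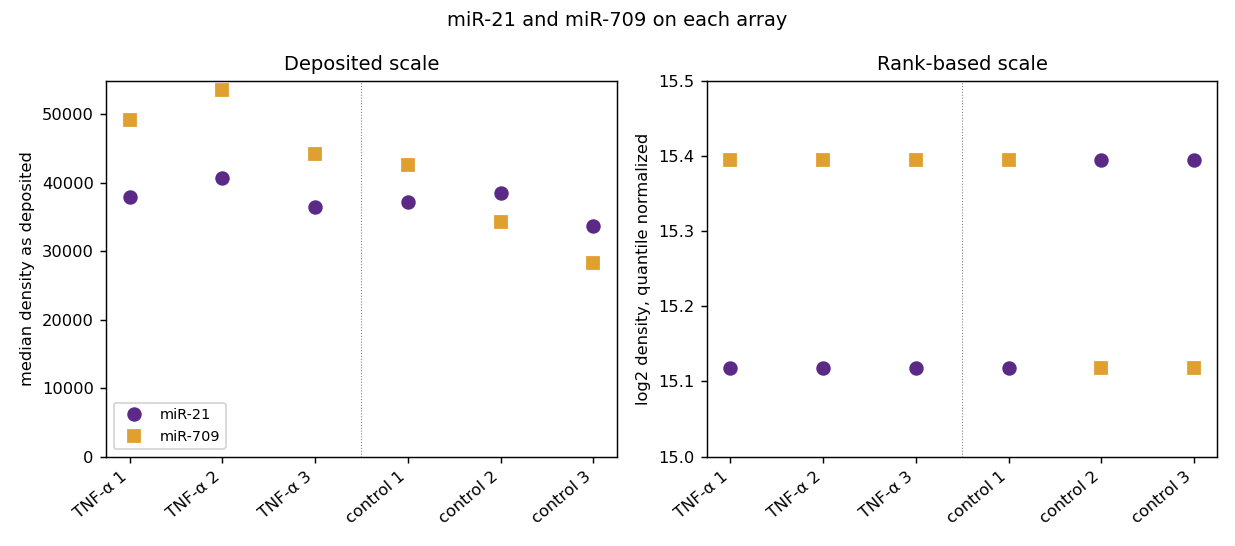
Values of miR-21 (circles) and miR-709 (squares) on each array, as deposited density (left, linear axis from 0) and as quantile-normalized log2 density (right, axis not from 0). On the left miR-21 stays between 33613 and 40623, and on the right both take only the values 15.12 and 15.39.

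The other arm of the miR-21 hairpin, miR-21*, was not measured above background. Its density was 108, 93.1 and 86.8 on the TNF-α arrays and 82.7, 83.5 and 88.2 on the control arrays. It lay below the background limit everywhere, so no fold is given. It entered the test because its corrected density reached 32 on 4 arrays, the 3 TNF-α arrays and control replicate 3. The fitted change was -0.05 ± 0.09 (SE, adjusted p = 0.716 in limma), and it was positive without normalization (0.14) and with median scaling (0.09).

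miR-221 was brighter on every TNF-α array than on every control array before normalization, though it did not pass in limma. Its density was 6130, 5975 and 5718 on TNF-α arrays 1 to 3, against 5457, 5466 and 4916 on control arrays 1 to 3. Means were 5941 ± 208 with TNF-α and 5280 ± 315 in controls (SD, n = 3 each), which is a fold of 1.13 in mean density. The difference in mean log2 density was 0.17 (exact permutation test, two-sided, p = 0.1, the smallest it can give, and 0.6 adjusted over the 6 reporters). It was the only one of the 5 reporters clear of background whose groups did not overlap. Of all 293 such reporters 33.4% had groups that did not overlap, and 19.8% were likewise higher on every TNF-α array. A count of 1 of 5 is not above that share.

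The size of the miR-221 difference moved with the scaling but not its sign. With quantile normalization the groups overlapped and the change was 0.05 ± 0.08 (SE, 95% interval -0.13 to 0.22, adjusted p = 0.691 in limma). Unnormalized densities gave 0.17 (adjusted p = 0.173 in limma) and median scaling 0.12 (adjusted p = 0.317). Cyclic loess gave 0.20 (adjusted p = 0.0794) and the processed table gave 0.19 (adjusted p = 0.112). The median change of all tested reporters was 0.14 in unnormalized densities and -0.12 in the processed table, and over those clear of background -0.01 and -0.13. Over all 21 alternatives the change ran from 0.008 to 0.20 and passed in none.

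miR-222, from the same primary transcript, varied more among the TNF-α cultures than miR-221 did. Its density was 5986, 4286 and 5755 on TNF-α arrays 1 to 3, against 5243, 5633 and 4771 on control arrays 1 to 3. TNF-α replicate 2 held the lowest value of all 6 arrays and the other TNF-α replicates the highest. Means were 5342 ± 922 with TNF-α and 5216 ± 431 in controls (SD, n = 3 each), and the change on the quantile scale was -0.03 ± 0.12 (SE, 95% interval -0.31 to 0.25, adjusted p = 0.889 in limma). Without TNF-α replicate 2 it was 0.10 (adjusted p = 0.479), and without TNF-α replicate 3 it was -0.11.

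The low value of miR-222 on TNF-α replicate 2 was not shared by most reporters of that array. Its density there was 73.0% of the mean of the other TNF-α arrays, a log2 gap of -0.45 after background correction, while the median gap of the 293 reporters clear of background was 0.10. A gap as low was found for 6 of the 293, a count looked up after the value had been seen. The deposited SD of the miR-222 spot was also widest there, at 6.62% of its density against 2.57% to 3.66% on the other arrays. Whether the spot or the culture gave the low value was not tested.

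The asterisked arms of both hairpins were at background. miR-221* was 113, 110.4 and 105 on the TNF-α arrays and 88.7, 79.8 and 87.1 on the control arrays, and miR-222* was between 62.5 and 92.0 on all arrays. Neither exceeded the background limit on any array. miR-1928, which has the miR-221 seed, exceeded it on 2 control arrays and no TNF-α array, with densities of 88.2, 80.5 and 91.4 with TNF-α and 88.1, 103.9 and 99.8 in controls. It passed as lower with TNF-α (-0.38 ± 0.11, SE, adjusted p = 0.0448 in limma), with no fold bound above 1, and it passed in 4 of 15 alternatives. miR-590-5p, listed with the seed relatives but not matched to a RefSeq sequence, was 84.1 ± 8.25 with TNF-α and 61.1 ± 3.65 in controls (SD, n = 3 each), above the limit on no array and not tested.

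**Figure D3:**
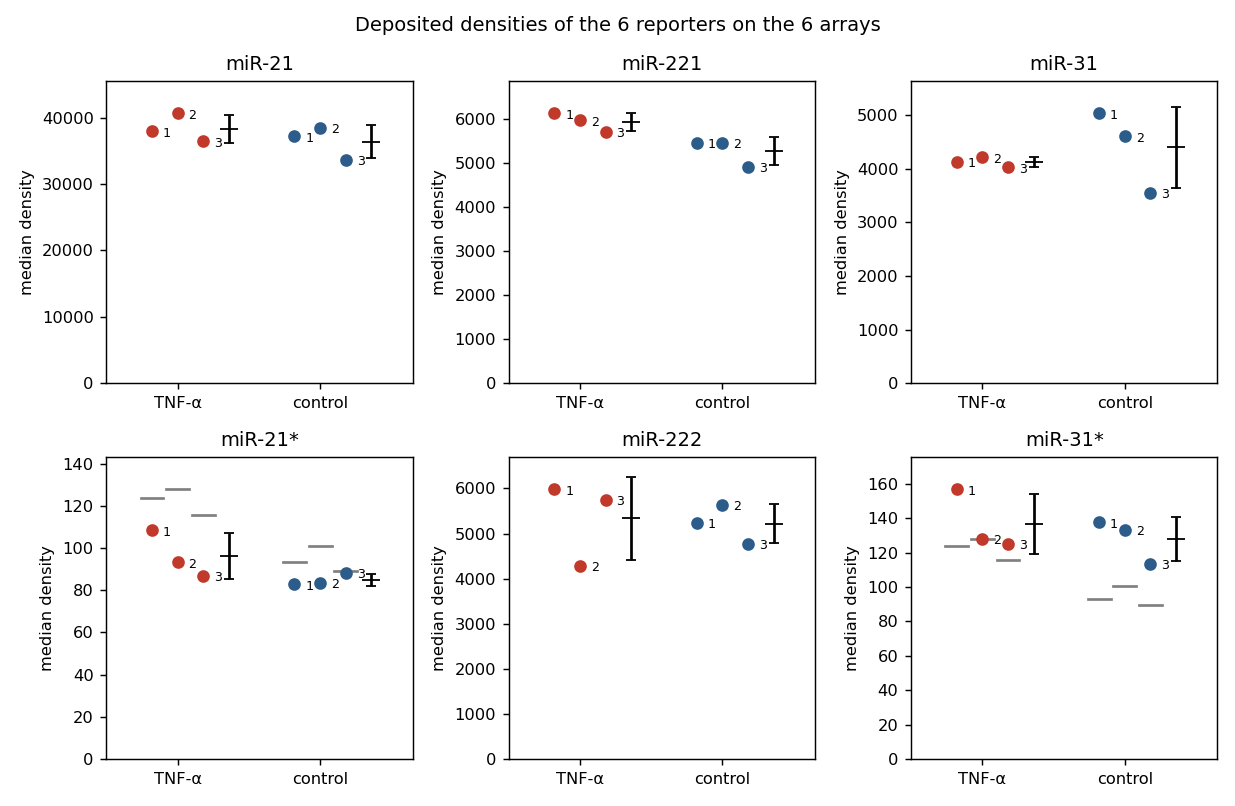
Deposited median density (linear axes from 0) of each reporter on the TNF-α arrays (red, left) and the control arrays (blue, right), numbered by replicate, with mean ± SD in black. Grey marks on the miR-21* and miR-31* panels are the background limit of each array. Among the reporters above it miR-221 alone has groups that do not overlap, as 33.4% of all 293 reporters clear of background do.

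miR-31 was nearly the same in the 3 TNF-α cultures and spread widely in the controls. Its density was 4128, 4214 and 4031 on TNF-α arrays 1 to 3, against 5034, 4609 and 3551 on control arrays 1 to 3. All TNF-α values lay inside the control range. The coefficient of variation was 2.22% with TNF-α and 17.4% in controls, with means of 4124 ± 91.5 and 4398 ± 763 (SD, n = 3 each). The difference in mean log2 density was -0.08 (exact permutation test, two-sided, p = 0.7). It was -0.22 without control replicate 3 and 0.03 without control replicate 1.

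The sign for miR-31 depended on the scaling, and its lowest value was on control replicate 3, the dimmest control array. The change was 0.06 ± 0.07 with quantile normalization (SE, 95% interval -0.10 to 0.23, adjusted p = 0.587 in limma), but the processed table gave -0.12, median scaling -0.13, cyclic loess -0.03 and unnormalized densities -0.08. In that table the values were 4044, 4045 and 4145 with TNF-α, against 4964, 4540 and 3894 in controls. Median scaling put the median of the reporters clear of background at -0.06.

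The other arm, miR-31*, was dim but above the limit. Its density was 157, 127.9 and 125 on the TNF-α arrays and 138, 133 and 113 on the control arrays, so the groups overlapped. On TNF-α replicate 2 it lay barely above the limit, which rounds to the same 127.9. The change was -0.03 ± 0.09 (SE, 95% interval -0.23 to 0.17, adjusted p = 0.840 in limma), positive in unnormalized densities (0.06) and after median scaling (0.01), and -0.16 in the processed table.

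**Figure D4:**
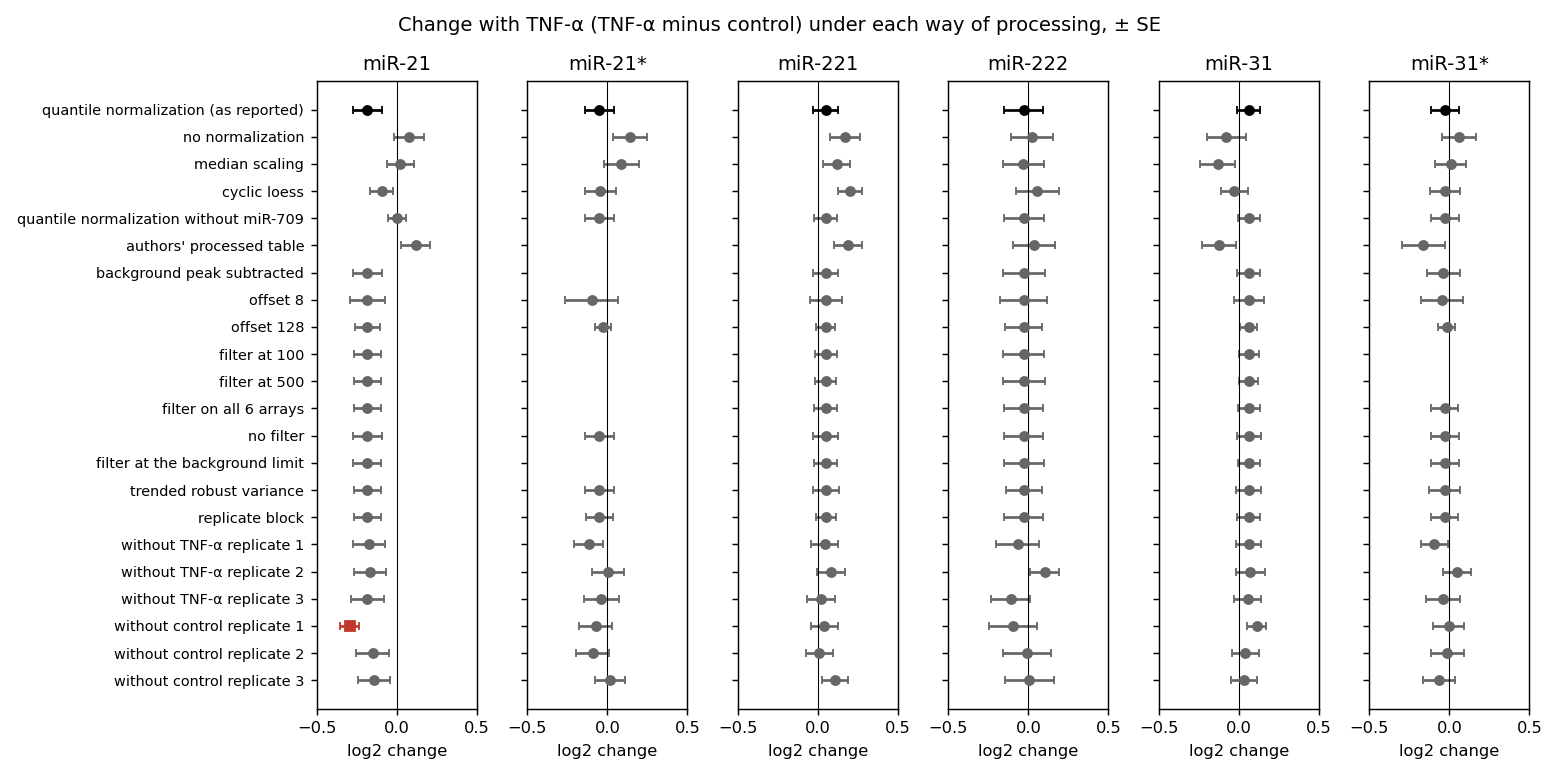
Change with TNF-α (log2, TNF-α minus control, ± SE) of each reporter under each way of processing, 1 row per setting and 1 panel per reporter; gaps are settings in which a reporter was not tested. The red square, miR-21 without control replicate 1, is the 1 value that passed an adjusted p of 0.05.

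Differences between 2 reporters on the same array were also taken, since a change of scale of the whole array cancels in them. They were computed for 5 pairs from background-corrected densities, on the log2 scale, and show unequal change only. miR-221 minus miR-222 was 0.03, 0.48 and -0.01 on TNF-α arrays 1 to 3, against 0.06, -0.04 and 0.04 on control arrays 1 to 3. TNF-α replicate 2 stood apart, and the other 5 arrays lay between -0.04 and 0.06. The change was 0.15 (exact permutation test, two-sided, p = 0.6), and -0.007 without TNF-α replicate 2.

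miR-31 minus miR-221 was lower on all TNF-α arrays, at -0.58, -0.51 and -0.51, than on the control arrays, at -0.12, -0.25 and -0.47. The change was -0.25, with means of -0.53 ± 0.04 with TNF-α and -0.28 ± 0.18 in controls (SD, n = 3 each; exact permutation test, two-sided, p = 0.1 and 0.25 adjusted over the 5 pairs). miR-21 minus miR-221 was also lower on all TNF-α arrays, at 2.64, 2.777 and 2.68, against 2.779, 2.83 and 2.78 in controls. TNF-α replicate 2 and control replicate 1 nearly tied. The change of this pair was -0.10 (exact permutation test, p = 0.1 and 0.25 adjusted). Of all 42778 pairs of reporters clear of background, 49.6% had groups that did not overlap. That 2 of the 5 pairs did, both of them with miR-221, is close to this share. The pair with miR-21* holds a reporter that was not clear of background.

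Of the pairs of arms, miR-31 minus miR-31* was 5.63 ± 0.25 with TNF-α and 5.81 ± 0.10 in controls (SD, n = 3 each; exact permutation test, p = 0.4, where it cannot go below 0.1). The groups overlapped, and the sign of the change turned when the background peak was subtracted instead. The difference between miR-21 and miR-21* is only plotted, since miR-21* lay below the background limit on every array.

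**Figure D5:**
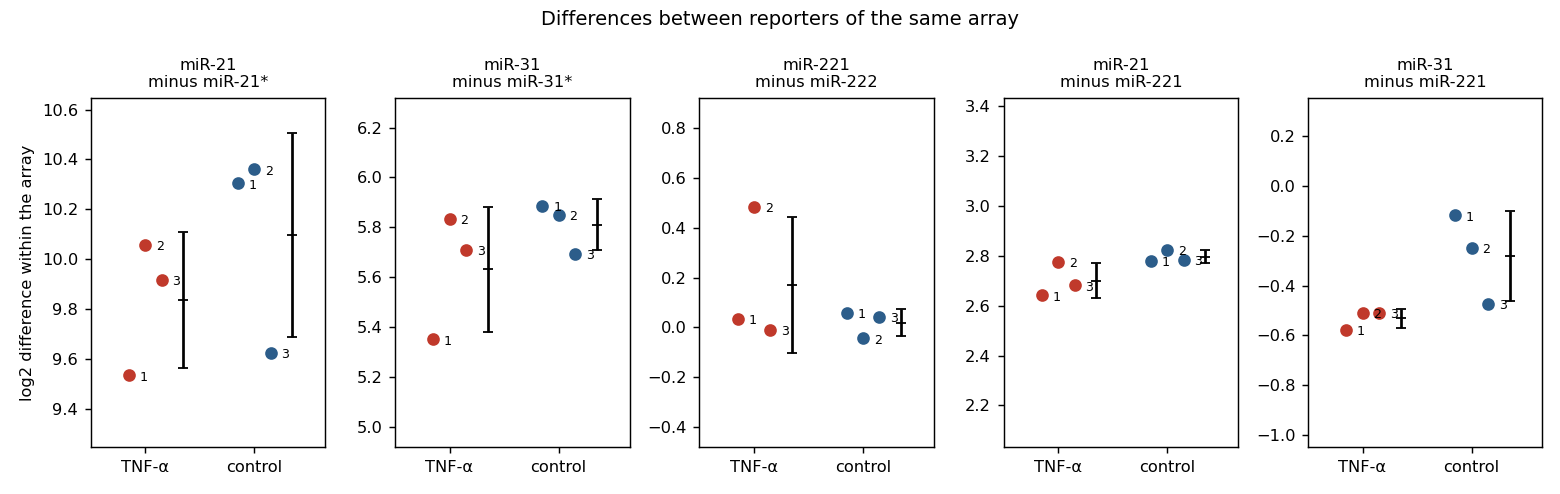
Within-array log2 difference of 5 pairs of reporters on the TNF-α arrays (red, left) and the control arrays (blue, right), numbered by replicate, with mean ± SD in black; all panels span the same range. In the first panel miR-21* is below the background limit throughout; miR-31 minus miR-221 is below -0.50 on every TNF-α array, and TNF-α replicate 2 stands apart at 0.48 for miR-221 minus miR-222.

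The reporters most like the members over the 6 arrays were ranked by the root mean square difference of centred normalized log2 values, among 292 others clear of background. Closest to miR-221 were miR-378 (0.045) and miR-27b* (0.055), and closest to miR-222 were miR-23b* (0.069) and miR-27b* (0.10). Closest to miR-31 were miR-466i-5p (0.045) and miR-455 (0.050), and closest to miR-31* were miR-5046 (0.046) and miR-466m-5p (0.051). Closest to miR-21 on its few rank values were miR-126-3p (0.046) and miR-1906 (0.057). Profiles that vary little are close to each other by this measure. miR-222 varied more, with an SD of its normalized log2 values of 0.24 on the TNF-α arrays, and miR-21 moved by rank steps.

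Other miRNAs reported to promote smooth muscle growth were read in the same fit. Of 13 on the arrays 11 were tested, and 1 passed as higher and 0 as lower, where 12.9% of all tested reporters passed as higher and 9.81% as lower. Their median change was -0.03, against 0.01 over all tested reporters and -0.03 over those clear of background, as 10 of the 11 were. In a separate fit of only the reporters clear of background, 17.7% passed as higher and 19.8% as lower. Of this list the same 1 passed there, as higher. The 1 of this list that passed was miR-130a, which represses Meox2, a growth-arrest homeobox gene, in rat smooth muscle (0.28 ± 0.07, SE, adjusted p = 0.0237 in limma). Median scaling gave -0.01 and the processed table gave 0.03, and it passed in 10 of 21 alternatives. miR-92a (-0.29), miR-146a (0.13) and miR-26a (0.18) did not pass. In the processed table miR-146a turned to -0.07, and miR-92a passed as lower (-0.47, adjusted p = 0.00978 in limma), its 1 call in 20 alternatives.

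Among miRNAs reported to restrain growth or favour the contractile state, 18 of 19 on the arrays were tested, and 2 passed as higher and 2 as lower, with a median of -0.04. These 4 of 18 are near the share of all tested reporters that passed, 22.7%. Of the 18, 13 were clear of background. In the separate fit of only the reporters clear of background 37.5% of all passed, and the count of this list in that fit is not given here. miR-34a, a target of p53, was 0.55 ± 0.07 (adjusted p = 0.00227 in limma), and miR-15b was 0.41 ± 0.07 (adjusted p = 0.00819 in limma). Each passed in 18 of 21 alternatives, the exceptions being unnormalized densities, median scaling and the processed table. miR-145* (-0.51) and miR-322 (-0.25) passed as lower, but neither exceeded the background limit on any TNF-α array, and neither had a fold bound above 1. miR-145* passed in all 12 alternatives that tested it, and miR-322 in 9 of 18, in none of those that left out an array. miR-503 (0.19) did not pass and exceeded the limit on no array, though it passed as higher in 2 of 12 alternatives. miR-16 (-0.11) and miR-132 (-0.11) did not pass, though miR-16 passed as lower in 2 of 21 alternatives and miR-132 in 2 of 20. miR-145 (0.17) and miR-143 (-0.05), the abundant smooth muscle miRNAs, did not pass. With cyclic loess miR-145 passed as higher (0.29, adjusted p = 0.0317 in limma), its 1 call in 21 alternatives, and miR-143 changed sign in 1 alternative.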

How the data were processed

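Total RNA was tailed with poly(A), joined to a tag and stained with Cy5, per the labels' protocols. The authors deposited for each array an intensity (median density) and its SD per reporter, without background subtraction as the values show, and a table of processed intensities whose background correction and scaling are not stated in any label or header. The descriptions call 2 TNF-α samples the third replicate, so replicate numbers come from the titles. The labels do not say whether equal numbers pair samples across the groups, and the main fit did not pair them.

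Densities were corrected with normexp and an offset of 50, taken to log2, quantile normalized and fitted with limma 3.58.1 in R 4.3.3, with group as the only term. Reporters entered the test if their corrected density was 32 or more on at least 3 arrays. Permutation tests were run in SciPy 1.17.1. The cultures were grown separately, per the series' design text, and the number of arrays limits the precision. Named reporters are the members, their other arms, reporters with a member's seed, the first ranks by density, the 2 reporters most like each member, of each growth list those that passed or were among the smallest p, and cell type markers from the marker lists. The members and lists were chosen with earlier results of these data known. The alternatives were other scalings, offsets, filters, background corrections and variance models, the processed table with 32 added, a replicate block and each array left out.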

Additional observations from a re-analysis of the deposited data

How the results depend on the processing

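The number of reporters that passed, 146, was 77 and 45 with filters at 100 and 500, where fewer were tested and the share that passed was 40.7% and 44.1%, and 70 to 91 with an array left out. It split into 83 higher and 63 lower, against 163 and 41 without normalization, 126 and 60 with median scaling and 39 and 81 in the processed table. Of the 6 reporters only miR-21 passed in any alternative, without control replicate 1 (-0.29; -0.29 to -0.14 over all arrays left out). Changes turned sign without normalization for miR-21 (0.076), miR-21* (0.14), miR-222 (0.022), miR-31 (-0.079) and miR-31* (0.062), with median scaling for miR-21 (0.022), miR-21* (0.087), miR-31 (-0.13) and miR-31* (0.0081), with cyclic loess for miR-222 (0.055) and miR-31 (-0.028), and in the processed table for miR-21 (0.12), miR-222 (0.036) and miR-31 (-0.12). With an array left out miR-21* ran from -0.12 to 0.016 (0.0033 without TNF-α replicate 2, 0.016 without control replicate 3), miR-222 from -0.11 to 0.10 (0.10 without TNF-α replicate 2, 0.0067 without control replicate 3) and miR-31* from -0.095 to 0.047 (0.047 without TNF-α replicate 2). miR-221 kept its sign in all 21 alternatives, but the filters, the variance model and the replicate block leave its estimate at 0.05 by construction. The log2 density difference of miR-21*, 0.17 as deposited, was -0.75 with the background peak subtracted and -0.27 in the processed table, and that of miR-31*, 0.09, was -0.21 and -0.27. The within-array change of miR-21 minus miR-21*, -0.26, was 0.82 and 0.39, and that of miR-31 minus miR-31*, -0.18, was 0.13 and 0.14. The cause was not tested. Same-numbered arrays had deviations that correlated at 0.04, 0.02 and 0.15, and arrays of unlike number at -0.13 to 0.10. With the replicate block 103 reporters passed, 0 of them members (miR-21 -0.18, miR-221 0.05). The limma fit had no value for miR-21* in the processed table, with the peak subtracted or with the stricter filters, nor for miR-31* with filters at 100 and 500. Both asterisked arms lie too near background for a firm value.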
